A study of Saccharomyces cerevisiae with 28 samples.

Results

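The genes described here are 52 genes for translation factors and aminoacyl-tRNA synthetases of the cytosol of budding yeast (Saccharomyces cerevisiae), of 6692 genes in each file. They were chosen by their standard names, and all 52 were matched to a systematic name in the files. They comprise 23 initiation factor genes, 9 elongation factor genes, 2 release factor genes and 18 synthetase genes. RNA was sequenced from 10 steady-state cultures in synthetic minimal medium, 1 library each. The cultures were the strain YL390 at 0.2% glucose and the strain YL388 at 9 glucose concentrations, which were 0.0125, 0.02, 0.025, 0.05, 0.075, 0.1, 0.15, 0.2 and 0.4%. All cells had first grown in 0.2% glucose and then spent 2 h at the concentration of their group before methanol fixation. The labels give both strains by number and state no genotype, and 18 samples of transient stress experiments, 6 of them unstressed controls with 2 each of YL390 and YL388, were not analysed here. The libraries address how steady-state transcript levels depend on glucose, and whether the YL390 culture differed from YL388 at the shared concentration.

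Translation begins when eIF2, bound to GTP and the initiator tRNA, joins the small ribosomal subunit together with eIF1, eIF1A, eIF3 and eIF5. The cap-binding complex eIF4F brings the mRNA, and eIF5B joins the subunits. The exchange factor eIF2B reloads eIF2 with GTP and is the point at which the kinase Gcn2 slows initiation in starved cells. In elongation eEF1A delivers aminoacyl-tRNAs that the synthetases have charged, eEF2 moves the ribosome along, and eEF3 is an additional ATPase that fungi need. The release factors eRF1 and eRF3 end the chain. In yeast these genes are known to be expressed together with ribosomal protein genes and to follow the growth rate.

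The unit of all levels is FPKM, fragments per kilobase of gene scaled to the mapped fragments of the library. FPKM are shares of the RNA in a library, so less of a transcript per cell, fewer cells that carry it, and more of other RNA cannot be told apart. The confidence bounds in the files implied 5918000 to 9214000 fragments per library. Each member's own bounds implied at least 105 fragments in every library, an estimate not checked against its FPKM, length and the library depth. None of the 52 members was listed at 0 in any library. Changes are fitted differences of log2(FPKM + 1) along log2 glucose over the 9 YL388 libraries, as the level at 0.0125% minus that at 0.4%, with the SE from the scatter around the line (n = 9 libraries, unreplicated). A gene is said to have risen or fallen where its limma p, adjusted over all 6121 genes tested, was under 0.05. The median change over all genes tested was 0.12, a small upward shift at low glucose. Whether it comes from the scaling or from the RNA was not tested.

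At low glucose nearly the whole set stood lower, by modest amounts. Of the 52 genes 43 fell, 2 rose and 7 were not called, while 15.7% of all genes tested fell, 31.6% rose and 47.3% were called in either direction. The genes tested reach down to a mean of 1 FPKM, and calls were not compared with those of genes of like level. The median change of the 52 genes was -0.36, against 0.12 over all genes tested. The changes of the members that fell lay between -0.22 and -0.77, so none was 2-fold lower on the fitted line, a size that 63 called genes of the whole table reached. The median member stood at 76.6% of its 0.4% level in the 0.0125% library, and the lowest, MES1, at 54.8%. The lowest of the 9 YL388 values lay at 0.0125% glucose for 48 of the 52 members, against 26.5% of all genes tested. The value there was the highest for 2 members, CAM1 and HEF3, and for 37.3% of all genes tested. In 42 members each of the 3 libraries at 0.0125, 0.02 and 0.025% lay below each of the other 6, against 15.2% of all genes tested. The members that rose were CAM1 and HEF3, each a paralog of a member that fell. Scaling by median ratios between libraries brought the median change of all genes from 0.12 to -0.0009. It gave 48 members that fell and the same 2 that rose, beside 1400 of all genes that fell and 1406 that rose. Quantile normalization gave 49 members that fell and 0 that rose, beside 1738 of all genes that fell and 1213 that rose. Relative to the median of all genes under the same scaling, the member median was -0.48 as deposited, -0.48 with median ratios and -0.45 with quantile normalization. A line in percent glucose, in place of its logarithm, called 0 members and 0 genes by limma, with 20 members and 1914 genes at an unadjusted p under 0.05. Without the library at 0.0125% the median change was -0.25, and 13 of the 45 calls were lost, each with its direction unchanged.

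**Figure D1:**
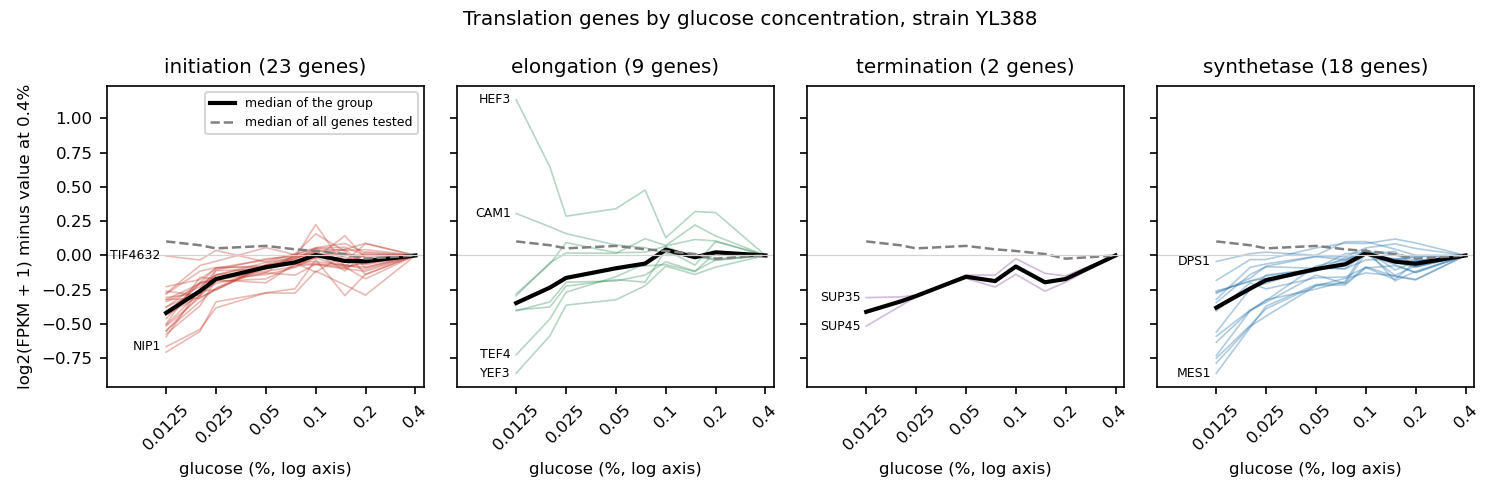
Level of each member in the 9 YL388 libraries, as log2(FPKM + 1) minus the value at 0.4% glucose, against glucose on a log axis from 0.0125 to 0.4%; thin lines are genes, the thick line is the group median and the dashed line the median of all genes tested. Group medians bend down below 0.05% while the median of all genes rises slightly, and CAM1 and HEF3 run upward among the elongation factors.

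In the median member most of the change lay at the low end of the range. The median member stood at -0.04 relative to its 0.4% value at 0.2 and at 0.15% glucose, at 0.01 at 0.1%, at -0.05 at 0.075% and at -0.09 at 0.05%. It then stood at -0.17 at 0.025%, at -0.25 at 0.02% and at -0.38 at 0.0125%, all on the log2 scale. When neighbouring libraries were grouped into low (0.0125, 0.02 and 0.025%), middle (0.05, 0.075 and 0.1%) and high (0.15, 0.2 and 0.4%) glucose, 22 members were lower and 1, CAM1, was higher in low than in middle glucose (limma, against 10.5% of all genes lower and 17.4% higher). Between middle and high glucose 0 of the 52 members were called by limma, against 0.0% of all genes tested, and at an unadjusted p under 0.05 there were 0 members and 606 genes. The median member difference was -0.22 for low minus middle and -0.03 for middle minus high glucose. Middle minus high differences ran from -0.13 (YEF3) to 0.10 (HEF3), and 38 of the 52 were below 0. Because that contrast called 0 of all genes, it cannot show that the members held level there. A square term passed for 12 members, all bending downward, while 7.38% of all genes tested bent downward and 8.68% upward. Without the library at 0.0125% that count was 0, and it was 5 without 0.05%, 5 without 0.075%, 7 without 0.1% and 7 without 0.4% glucose. Shares over all genes in these fits are not given. The library at 0.1% lay above both neighbouring concentrations in 36 members, and in 34.2% of all genes tested; what sets this library apart was not tested.

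**Figure D2:**
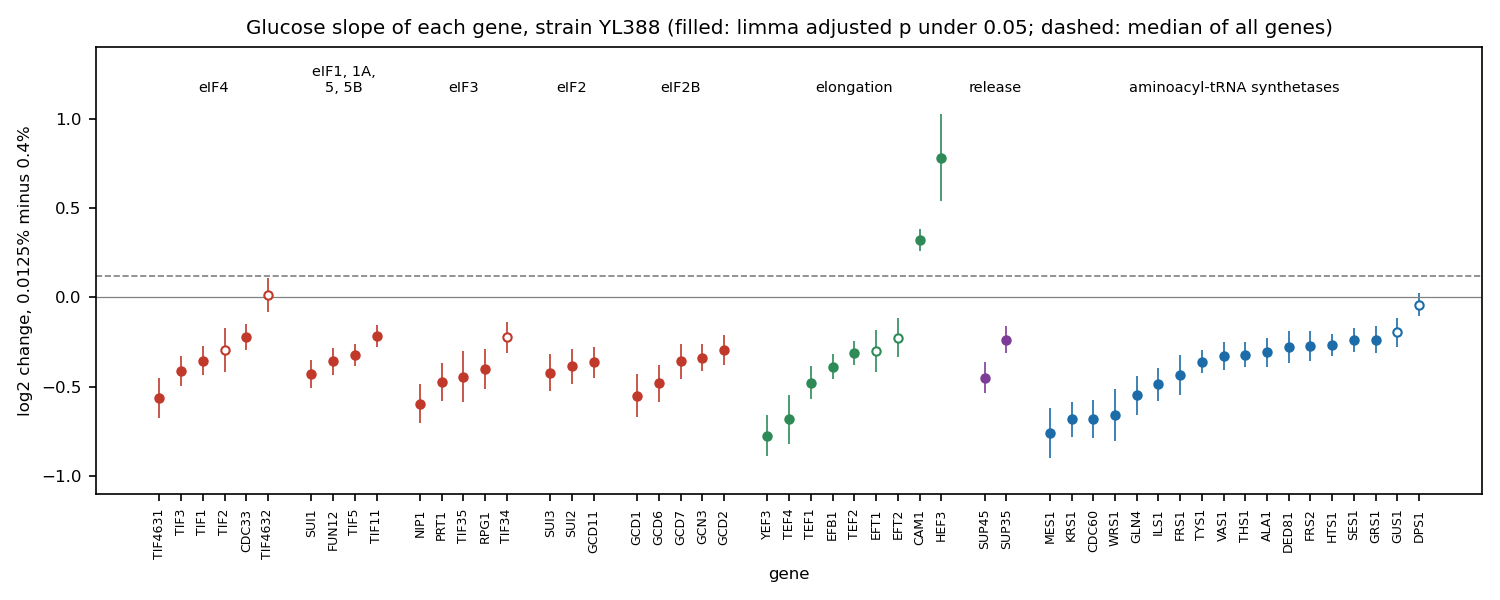
Fitted log2 change, 0.0125% minus 0.4% glucose, for each of the 52 members, grouped by complex, with SE bars from the scatter of 9 YL388 libraries; filled symbols passed a limma adjusted p of 0.05. Members lie mostly between -0.2 and -0.8, with CAM1 and HEF3 as the members that rose.

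Among the factors that bring the mRNA, 4 of 6 genes fell, and the genes of the scaffold protein eIF4G differed from each other. TIF4631, which encodes the major form eIF4G1 (YGR162W, chromosome VII, 824059 to 826917), had 65.7, 73.1, 85.1, 89.0, 89.0, 99.5, 92.8, 88.1 and 108 FPKM from 0.0125 to 0.4% glucose, a change of -0.56 ± 0.11 (limma adjusted p = 0.00329). Its values at 0.0125 and 0.02% lay below all others. TIF4632, for eIF4G2 (YGL049C, chromosome VII, 406860 to 409604), had 25.2, 24.7, 26.0, 24.4, 25.5, 28.3, 25.9, 22.8 and 25.3 FPKM, with its highest value at 0.1% and its lowest at 0.2%, and was not called (change 0.01 ± 0.09, limma adjusted p = 0.921, and -0.11 after scaling by median ratios). TIF3, for eIF4B, a cofactor of the helicase, had 306 FPKM at 0.0125% and 435 FPKM at 0.4% and fell by 0.41 (limma adjusted p = 0.00333). The cap-binding protein gene CDC33 (eIF4E), at 905 FPKM at 0.0125% and 1099 FPKM at 0.4%, fell least of the called genes in this group (-0.22 ± 0.07, limma adjusted p = 0.0287). Its call was lost without 0.0125% glucose (change -0.13, limma adjusted p = 0.134) and without 0.2% (limma adjusted p = 0.0623).

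Genes for the factors that scan and choose the start codon all fell. SUI1, for eIF1, which keeps the scanning complex open, had 3061, 3083, 3233, 3588, 3665, 3788, 3944, 4069 and 3826 FPKM from 0.0125 to 0.4% (-0.43 ± 0.08, limma adjusted p = 0.0019). Its values climbed step by step from 0.0125 up to 0.2%. TIF11, for eIF1A, its partner in scanning, had 1580.1 FPKM at 0.0125% and 1850.3 FPKM at 0.4% and changed by -0.22 ± 0.06 (limma adjusted p = 0.0161, and 0.0609 without 0.0125%). Both are short genes, of 327 and 462 bp, whose FPKM stood 2.60 and 1.79 times above the centre of their own confidence bounds in the median, so their levels cannot be set against those of longer genes. With the centres of the bounds in place of FPKM every one of the 52 calls was the same. TIF5, for eIF5, which makes eIF2 hydrolyse its GTP, had 259 FPKM at 0.0125% and 328 FPKM at 0.4% and changed by -0.32 ± 0.06 (limma adjusted p = 0.00321). FUN12, for eIF5B, the GTPase that joins the ribosomal subunits, had 104 FPKM at 0.0125% and 141 FPKM at 0.4% and changed by -0.36 ± 0.07 (limma adjusted p = 0.00403).

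The 3 genes of eIF2 and the 5 genes of its exchange factor eIF2B all fell. In eIF2 the changes were -0.39 ± 0.10 for SUI2 (alpha, the subunit that Gcn2 phosphorylates), -0.42 ± 0.10 for SUI3 (beta) and -0.36 ± 0.09 for GCD11 (gamma, which binds GTP), with limma adjusted p from 0.00758 to 0.01. GCD11, which overlaps no other gene, had 156, 180.5, 186, 191, 209.9, 210.1, 204, 204 and 209 FPKM from 0.0125 to 0.4% glucose. Its lowest 3 values belonged to the lowest 3 concentrations. SUI3 shares 368 bases with YPL238C, so reads of this pair cannot be told apart if strand was not used. Without 0.0125% glucose the changes of SUI2 and SUI3 were -0.24 and -0.25, both still called. In eIF2B, the changes were -0.55 ± 0.12 for GCD1 (gamma), -0.48 ± 0.10 for GCD6 (epsilon, the catalytic subunit), -0.36 ± 0.10 for GCD7 (beta), -0.34 ± 0.07 for GCN3 (alpha) and -0.29 ± 0.08 for GCD2 (delta). The limma adjusted p of these 5 genes lay between 0.00439 and 0.017. GCD6 had 53.6, 62.0, 70.8, 69.8, 76.9, 76.9, 76.3, 75.6 and 80.3 FPKM. GCD7 and GCD2 were not called without 0.0125% glucose (changes -0.23 and -0.21, limma adjusted p = 0.0715 and 0.0983).

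In eIF3, the complex that holds the initiation machinery on the small subunit, 4 of 5 genes fell. NIP1 (eIF3c) had 55.8, 61.0, 68.1, 73.6, 75.1, 87.1, 72.5, 81.0 and 89.1 FPKM from 0.0125 to 0.4%, the steepest change of any initiation gene (-0.59 ± 0.11, limma adjusted p = 0.00212). PRT1 (eIF3b), at 128 FPKM at 0.0125% and 183 FPKM at 0.4%, changed by -0.47 ± 0.11 (limma adjusted p = 0.0059). RPG1 (eIF3a), at 106 FPKM at 0.0125% and 156 FPKM at 0.4%, changed by -0.40 ± 0.11, and TIF35 (eIF3g), at 404 FPKM at 0.0125% and 610.2 FPKM at 0.4%, by -0.44 ± 0.14 (limma adjusted p = 0.0163 and 0.0282). These last calls rest on the lowest concentration: without 0.0125% glucose the changes were -0.23 and -0.21 (limma adjusted p = 0.0764 and 0.12). TIF35 was also not called without 0.02% (limma adjusted p = 0.0535) or without 0.2% (0.0564). TIF34 (eIF3i) was not called on the line, with a change of -0.22 ± 0.09 (limma adjusted p = 0.0611), although its square term passed (limma adjusted p = 0.0371). It was called, at -0.34, after scaling by median ratios (limma adjusted p = 0.0125) and, at -0.31, without 0.4% glucose (limma adjusted p = 0.0272).

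The elongation factors held the extremes of the whole set. YEF3, for the ATPase eEF3 (YLR249W, chromosome XII, 636780 to 639914), had 562, 680.1, 794, 816, 876, 967, 927, 963 and 1021 FPKM from 0.0125 to 0.4% glucose and fell by 0.77 ± 0.12 (limma adjusted p = 0.000932). HEF3, its paralog (YNL014W, chromosome XIV, 606319 to 609453), had 7.77, 5.23, 3.86, 4.05, 4.55, 3.36, 3.98, 3.95 and 2.99 FPKM and rose by 0.78 ± 0.24 (limma adjusted p = 0.0256). The HEF3 value at 0.0125% was the highest and that at 0.4% the lowest, with the value at 0.02% the next highest. The rise of HEF3 was not called without 0.0125% (change 0.47, limma adjusted p = 0.162), without 0.02% (limma adjusted p = 0.0541), without 0.4% (0.0699) or under quantile normalization (change 0.34, limma adjusted p = 0.326). HEF3 also shares 321 bases, 10.2% of its length, with YNL013C, which was listed at 21.3 FPKM at 0.0125%, 5.16 FPKM at 0.4% and at 0 in the libraries at 0.15 and 0.2%. The part of that gene in the rise of HEF3 was not tested.

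TEF4 and CAM1, which both encode the gamma subunit of eEF1B, the exchange factor of eEF1A, moved in opposite directions. TEF4 (YKL081W, chromosome XI, 282891 to 284455) had 655, 787, 900.3, 973, 1041, 1132, 1074, 1066 and 1084 FPKM from 0.0125 to 0.4% glucose (-0.68 ± 0.14, limma adjusted p = 0.00353). CAM1 (YPL048W, chromosome XVI, 464401 to 465648) had 507, 474, 458, 432, 427, 414, 409.7, 400.3 and 410.2 FPKM (0.32 ± 0.06, limma adjusted p = 0.0026). In CAM1 the 3 lowest concentrations lay above the other 6 without overlap, a pattern that 25.2% of all genes tested showed. CAM1 kept its call in each fit that left out 1 library and after scaling by median ratios (change 0.20, limma adjusted p = 0.0236), but not under quantile normalization (change 0.04, limma adjusted p = 0.55). EFB1, for the catalytic alpha subunit of eEF1B, had 2962, 3099, 3422, 3445, 3549, 3795, 3622, 3832 and 3919 FPKM and fell (-0.39 ± 0.07, limma adjusted p = 0.00189). EFB1 and TEF4 were the members with a split coding sequence, and the locus the files give them spans the intron. Whether their FPKM were scaled to that span was not examined, which also bears on the level of TEF4 relative to CAM1.

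The promoters of both pairs are shown because their genes diverged most along glucose. Each is the 250 bases before the start codon and the first 50 bases from it on, on the coding strand of the R64 assembly (RefSeq), with the start codon and any match to the motifs named further below in capitals:
HEF3 (chrXIV:606069-606368, plus strand): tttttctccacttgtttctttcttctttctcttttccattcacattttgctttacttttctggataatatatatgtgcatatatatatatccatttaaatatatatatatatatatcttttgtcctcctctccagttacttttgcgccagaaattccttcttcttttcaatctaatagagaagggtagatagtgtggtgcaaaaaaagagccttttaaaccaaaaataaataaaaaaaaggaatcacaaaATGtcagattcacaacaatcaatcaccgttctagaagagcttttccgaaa
YEF3 (chrXII:636530-636829, plus strand): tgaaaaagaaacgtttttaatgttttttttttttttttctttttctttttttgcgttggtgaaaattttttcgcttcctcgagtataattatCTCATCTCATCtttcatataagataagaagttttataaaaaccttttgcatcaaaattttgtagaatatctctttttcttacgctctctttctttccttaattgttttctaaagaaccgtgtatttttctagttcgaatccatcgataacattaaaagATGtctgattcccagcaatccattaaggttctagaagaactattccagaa
CAM1 (chrXVI:464151-464450, plus strand): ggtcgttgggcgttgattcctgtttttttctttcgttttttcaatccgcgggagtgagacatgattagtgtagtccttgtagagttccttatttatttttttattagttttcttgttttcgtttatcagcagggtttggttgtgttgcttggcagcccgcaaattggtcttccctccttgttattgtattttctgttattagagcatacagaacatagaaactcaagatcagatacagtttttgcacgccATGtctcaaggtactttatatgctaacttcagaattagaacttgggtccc
TEF4 (chrXI:282641-282940, plus strand): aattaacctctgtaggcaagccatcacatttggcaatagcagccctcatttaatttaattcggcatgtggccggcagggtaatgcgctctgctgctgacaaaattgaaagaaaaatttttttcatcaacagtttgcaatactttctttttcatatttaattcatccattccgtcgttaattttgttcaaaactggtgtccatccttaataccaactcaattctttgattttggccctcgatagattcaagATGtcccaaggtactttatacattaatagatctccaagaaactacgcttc
The YEF3 window holds 2 overlapping matches to GATGAG on the reverse strand, the core of a motif found before ribosome assembly genes. The windows of HEF3, CAM1 and TEF4 hold none of the 4 motifs searched.

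Some of the paralog pairs are so alike that their reads can hardly be divided, which is why their sequences are shown. TEF1 and TEF2 both encode eEF1A, and their coding sequences of 1377 bases differ at 2 positions, T762C and T834C (the TEF1 base, the position from the start codon, the TEF2 base). The 41 bases around each, with the differing base in capitals, read:
TEF1 (chrXVI:701335-701375, plus strand): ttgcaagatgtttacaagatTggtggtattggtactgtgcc
TEF2 (chrII:478412-478452, plus strand): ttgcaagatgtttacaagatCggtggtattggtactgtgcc
TEF1 (chrXVI:701407-701447, plus strand): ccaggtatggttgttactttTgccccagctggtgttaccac
TEF2 (chrII:478484-478524, plus strand): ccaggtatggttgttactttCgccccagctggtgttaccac
Only 7.53% of the 50-base windows of either gene occur once in the genome. The share was 15.1% for TIF1 and TIF2 (eIF4A, the helicase of eIF4F; 6 differences in 1188 bases) and 8.06% for EFT1 and EFT2 (eEF2; 4 differences in 2529 bases), and 100% for each of the other 46 members. Neither read length nor the handling of reads with several matches is stated in the labels or headers. At 0.4% glucose EFT1 and EFT2 were listed at 31.0 and 53.5 FPKM and TEF1 and TEF2 at 283 and 388 FPKM, against 1021 FPKM for YEF3, so the levels of these pairs should not be set against those of other genes.

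Along glucose, TEF1 and TEF2 fell (-0.48 ± 0.09 and -0.31 ± 0.07, limma adjusted p = 0.00262 and 0.00451), and so did TIF1 (-0.35 ± 0.08, limma adjusted p = 0.00592). TIF2, EFT1 and EFT2 had changes of -0.29 ± 0.12, -0.30 ± 0.12 and -0.23 ± 0.11 and were not called (limma adjusted p = 0.0795, 0.0642 and 0.113). The square term of EFT1 passed (limma adjusted p = 0.0419). Summed, TEF1 and TEF2 had 519, 548, 589, 614, 615, 662, 627, 698 and 671 FPKM from 0.0125 to 0.4% and a change of -0.38 ± 0.07 (limma adjusted p = 0.00226). The sum climbed from the lowest concentration up to 0.1% and was highest at 0.2%. The sum of TIF1 and TIF2 changed by -0.33 ± 0.09 (limma adjusted p = 0.0152) and that of EFT1 and EFT2 by -0.26 ± 0.11 (limma adjusted p = 0.0814). EFT1 and EFT2 were each lowest at 0.0125%, at 25.1 and 43.9 FPKM, and were called after scaling by median ratios (limma adjusted p = 0.0222 and 0.0341) and without 0.4% glucose (changes -0.48 and -0.35, limma adjusted p = 0.00705 and 0.0357). EFT2 was also called without 0.025% (limma adjusted p = 0.0477) and TIF2 without 0.1% (limma adjusted p = 0.0266) or after scaling by median ratios (limma adjusted p = 0.0202).

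The levels of paralogs were also compared within each library, as the difference of their log2(FPKM + 1). The ratio of YEF3 to HEF3 was 72.3 at 0.0125% and 341.7 at 0.4% glucose, and the fitted change on the log2(FPKM + 1) scale was -1.55 ± 0.34 (exact permutation test over 9 libraries, two-sided p = 0.000557, adjusted over 6 pairs 0.00111). TEF4 over CAM1 was 1.29 at 0.0125% and 2.64 at 0.4% (-1.0 ± 0.19, exact p = 0.000237, adjusted 0.000711). TIF4631 over TIF4632 was 2.61 at 0.0125% and 4.27 at 0.4% (-0.58 ± 0.09, exact p = 0.000149, adjusted 0.000711). Ratios of FPKM with no pseudocount, which a scaling factor of a library cannot change, gave -1.72 ± 0.39 for YEF3 over HEF3, -1.0 ± 0.19 for TEF4 over CAM1 and -0.58 ± 0.09 for TIF4631 over TIF4632 (exact p = 0.000722, 0.000237 and 0.00016). In each of these pairs the gene that stood higher lost ground as glucose fell. Without the library at 0.0125% the changes of these ratios were -1.07, -0.76 and -0.47 (exact p = 0.00501, 0.00213 and 0.00134). The near-identical pairs changed by -0.16 ± 0.08 (TEF1 over TEF2), -0.06 ± 0.09 (TIF1 over TIF2) and -0.07 ± 0.06 (EFT1 over EFT2), with exact p = 0.084, 0.561 and 0.246. Their ratios depend on how shared reads were divided, which is not stated, so they do not show whether the copies changed alike. The coding sequences of the diverging pairs are 74.6% (YEF3 and HEF3), 68.6% (TEF4 and CAM1) and 58.4% (TIF4631 and TIF4632) identical, and each of their 50-base windows occurs once in the genome.

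**Figure D3:**
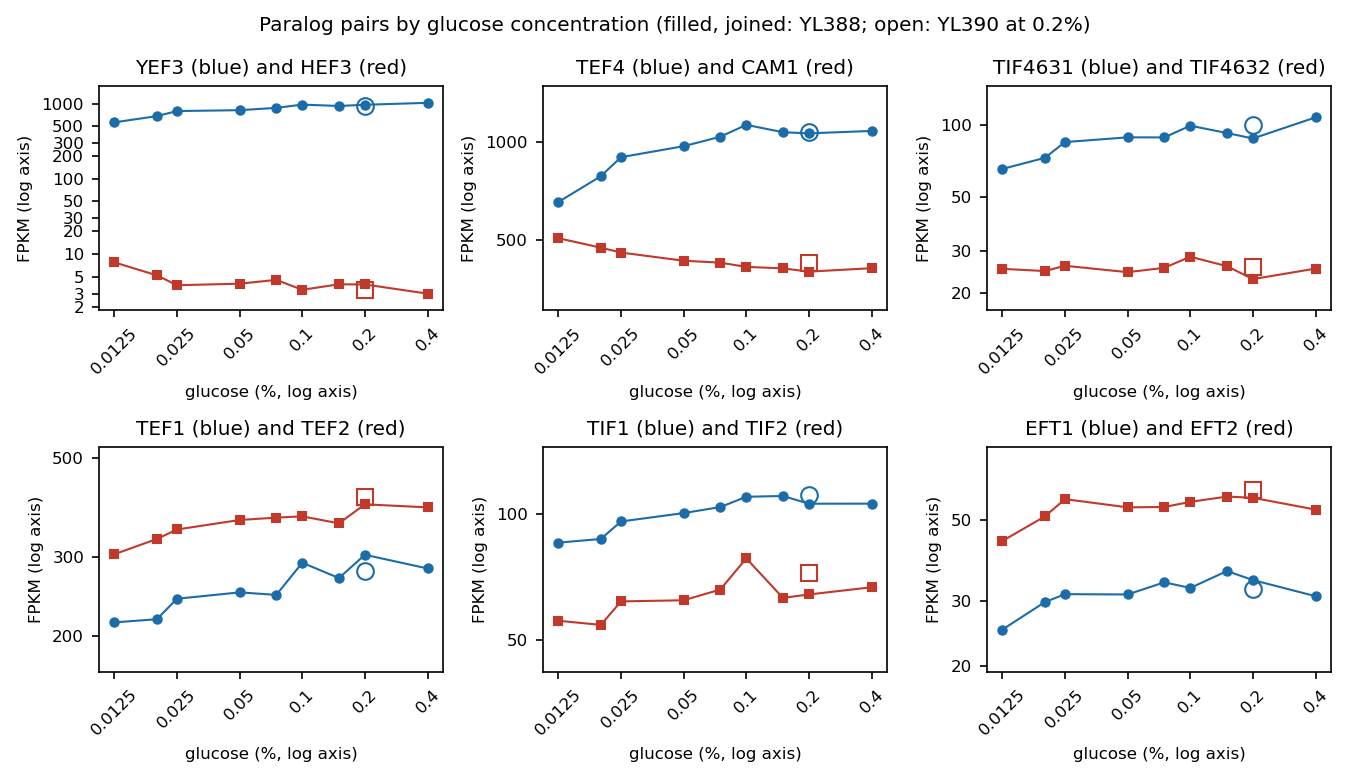
FPKM of the 6 paralog pairs (log axis) against glucose (log axis), with joined filled symbols for the 9 YL388 libraries and open symbols for YL390 at 0.2%. Lines of YEF3 and HEF3, TEF4 and CAM1, and TIF4631 and TIF4632 approach each other toward 0.0125% glucose, whereas those of the near-identical pairs run side by side.

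Both release factor genes fell. SUP45, for eRF1, which reads the stop codons, had 276, 305, 320.1, 358, 358, 389, 361, 356 and 395 FPKM from 0.0125 to 0.4% glucose (-0.45 ± 0.09, limma adjusted p = 0.00306). SUP35, for its GTPase partner eRF3, had 145, 146, 147, 159.9, 153, 163, 149.8, 157 and 179.8 FPKM (-0.24 ± 0.07, limma adjusted p = 0.0268). SUP45 was lowest in the 3 lowest concentrations, while SUP35 at 0.15% lay close to its values there. The SUP35 call was lost without any of the libraries at 0.0125, 0.02, 0.025 or 0.4% (limma adjusted p = 0.0609, 0.0641, 0.0525 and 0.157), and without 0.4% its change was -0.15.

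Of the 18 synthetase genes, which charge tRNAs with their amino acid, 16 fell and 2 were not called, with a median change of -0.32. The steepest was MES1 for methionine (YGR264C, chromosome VII, 1019598 to 1021853), at 80.5, 102, 114, 127, 128, 148, 140.1, 135 and 147 FPKM from 0.0125 to 0.4% (-0.76 ± 0.14, limma adjusted p = 0.00233). Its value at 0.0125% lay apart below those of all other concentrations. KRS1 for lysine (YDR037W, chromosome IV, 525440 to 527215) had 309.6, 366, 398, 448, 449, 489, 495, 479 and 522 FPKM and changed by -0.68 ± 0.10 (limma adjusted p = 0.000804). CDC60 for leucine, at 62.6 FPKM at 0.0125% and 109 FPKM at 0.4%, changed by -0.68 ± 0.11 (limma adjusted p = 0.00109), and WRS1 for tryptophan, at 164 FPKM at 0.0125% and 272 FPKM at 0.4%, by -0.66 ± 0.14 (limma adjusted p = 0.00506). WRS1 had the strongest bend of all members, with a square term at a limma adjusted p of 0.00935. At the other end, DPS1 for aspartate had 211, 219.6, 221, 218, 233, 234, 225, 218 and 218 FPKM and was not called (-0.04 ± 0.06, limma adjusted p = 0.627). Its 9 values stayed close together, and quantile normalization called it (change -0.21, limma adjusted p = 0.026). GUS1 for glutamate, with 189 FPKM at 0.0125% and 214 FPKM at 0.4%, was also not called (-0.20 ± 0.08, limma adjusted p = 0.0748), but was without 0.4% glucose (change -0.32, limma adjusted p = 0.00798) and after scaling by median ratios (-0.32, limma adjusted p = 0.0145). The square term of GUS1 passed (limma adjusted p = 0.0164).

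The other 12 synthetase genes lay between. GLN4 (glutamine), ILS1 (isoleucine) and FRS1 changed by -0.55, -0.49 and -0.44. FRS1 and FRS2 encode the beta and alpha subunits of the enzyme for phenylalanine, and FRS2 changed by -0.27. TYS1 (tyrosine), VAS1 (valine), THS1 (threonine) and ALA1 (alanine) changed by -0.36, -0.33, -0.32 and -0.31. DED81 (asparagine), HTS1 (histidine), SES1 (serine) and GRS1 (glycine) changed by -0.28, -0.27, -0.24 and -0.24. Limma adjusted p for these 12 ran from 0.00226 to 0.0282. Without 0.0125% glucose the calls of ALA1, DED81, FRS2, GRS1 and SES1 were lost (changes -0.23, -0.14, -0.15, -0.15 and -0.20; limma adjusted p from 0.0654 to 0.139), and FRS1 changed by -0.25. The call of GRS1 was also lost without 0.02% (limma adjusted p = 0.0677), and that of DED81 without 0.15% (0.055) or 0.2% (0.0547). HTS1, VAS1, ALA1 and GRS1 are known to supply the mitochondrial enzyme as well from the same gene. Among these genes ALA1, GLN4, GRS1, ILS1 and MES1 overlap another gene in the files.

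Promoter windows of 6 synthetase genes held TGACTC, the core of the site of Gcn4, the activator that starved cells make when eIF2 is phosphorylated. In GLN4 the match lies within the coding sequence. A match lay in the windows of 6 of 18 synthetase genes (33.3%), 0 of the 34 other members and 11.5% of all 52 members. Over all 5985 promoters of the same 300 bases, on either strand, the share was 8.0%. The 36 bases around each match, on the coding strand with the match in capitals, read:
ALA1 (chrXV:949136-949171, minus strand): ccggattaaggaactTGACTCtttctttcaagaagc
GLN4 (chrXV:649307-649342, plus strand): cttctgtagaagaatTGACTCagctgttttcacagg
ILS1 (chrII:84343-84378, minus strand): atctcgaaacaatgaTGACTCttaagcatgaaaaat
KRS1 (chrIV:525291-525326, plus strand): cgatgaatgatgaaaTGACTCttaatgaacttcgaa
THS1 (chrIX:212280-212315, plus strand): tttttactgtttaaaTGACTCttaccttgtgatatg
VAS1 (chrVII:672073-672108, plus strand): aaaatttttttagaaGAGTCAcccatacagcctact
The matches begin 47 (ALA1), 102 (ILS1), 134 (KRS1), 204 (THS1) and 98 (VAS1) bases before the start codon, that of VAS1 on the reverse strand, and in GLN4 at base 20 of the coding sequence. The 6 genes changed by -0.31, -0.55, -0.49, -0.68, -0.32 and -0.33, within the range of the other synthetases. CACCCNNACA, a core of the site of Rap1, the activator of ribosomal protein genes, matched in 2 member promoters, KRS1 and VAS1 (3.85%, against 1.04% of all promoters), and in VAS1 it overlaps the TGACTC match. Among promoters of cytosolic ribosomal protein genes it matched in only 6 of 137 (4.38%). The lack of a match therefore does not tell whether Rap1 acts on a gene. GATGAG matched in 13 members (25%, against 20.4%), and CCCCT, the element bound by Msn2 and Msn4 in stress, in 5 (9.62%, against 21.7%). In THS1 and WRS1 the only GATGAG match begins at the base before the start codon and includes that codon. A match is a string of letters and no evidence of binding, and the windows reach no further than 250 bases before the start codon.

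The 4 functional classes did not stand far apart. The median change was -0.36 for initiation (20 of 23 fell), -0.31 for elongation (5 of 9 fell, 2 rose), -0.34 for the 2 release factors and -0.32 for the synthetases (16 of 18 fell). The spread within a class was larger than that between medians, with initiation genes from -0.59 to 0.01 and synthetases from -0.76 to -0.04. Across the 52 members the change was related neither to the mean level (Spearman rho = -0.03) nor to gene length (rho = -0.14), as a description of genes measured in the same 9 libraries. Around their curves the members scattered by a median SD of 0.05, against 0.09 over all genes tested. The genes tested reach down to a mean of 1 FPKM, and scatter was not compared with genes of like level. Without the 3 near-identical pairs 40 of 46 members fell, and without the 7 members that overlap another gene 37 of 45 fell.

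Genes of the cytosolic machinery outside the 52 also stood mostly lower at low glucose, and the mitochondrial counterparts stood higher. Of 3 further cytosolic synthetase genes, YHR020W (proline) had 113 FPKM at 0.0125% and 190.3 FPKM at 0.4% (a log2 change of -0.63 ± 0.12 with limma adjusted p = 0.00309) and YDR341C (arginine) 144 FPKM at 0.0125% and 207 FPKM at 0.4% (a log2 change of -0.47 ± 0.08 with limma adjusted p = 0.00129). YNL247W (CRS1, cysteine), with 103.3 FPKM at 0.0125% and 119.8 FPKM at 0.4%, was not called (change -0.17 ± 0.07, limma adjusted p = 0.0938), but was after scaling by median ratios (-0.29, limma adjusted p = 0.0126). Of 27 other cytosolic factors and regulators tested, 15 fell and 3 rose, with a median change of -0.31. The shares over all genes tested were 15.7% and 31.6%. NEW1, an ATPase related to eEF3, had 45.5 FPKM at 0.0125% and 81.6 FPKM at 0.4% (a log2 change of -0.75 ± 0.11 with limma adjusted p = 0.000999). TPA1, a protein linked to termination, had 50.4 FPKM at 0.0125% and 92.1 FPKM at 0.4% (a log2 change of -0.78 ± 0.10 with limma adjusted p = 0.000551). DBP1, a helicase paralogous to the initiation helicase Ded1, rose, with 16.9 FPKM at 0.0125% and 7.06 FPKM at 0.4% (a log2 change of 1.16 ± 0.19 with limma adjusted p = 0.00126). EAP1, an inhibitor that binds eIF4E, had 45.6 FPKM at 0.0125% and 42.0 FPKM at 0.4% (a log2 change of 0.27 ± 0.10 with limma adjusted p = 0.0444), and was not called after scaling by median ratios (0.15, limma adjusted p = 0.204). GCN4, which encodes the activator named above, also rose, with 1574, 1614, 1663, 1471, 1467, 1451, 1413, 1494 and 1363 FPKM from 0.0125 to 0.4% (0.24 ± 0.07, limma adjusted p = 0.0156), but not after scaling by median ratios (0.12, limma adjusted p = 0.262); it is named here after its values were seen. Scaling by median ratios gave 20 of these 27 that fell and 1, DBP1, that rose, against 22.9% and 23.0% of all genes.

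Of 13 mitochondrial synthetase genes 12 rose and 0 fell, with a median change of 0.48, led by MSF1 (phenylalanine), with 29.7 FPKM at 0.0125% and 20.1 FPKM at 0.4% (a log2 change of 0.74 ± 0.14 with limma adjusted p = 0.00222), and ISM1 (isoleucine), with 20.6 FPKM at 0.0125% and 15.7 FPKM at 0.4% (a log2 change of 0.70 ± 0.17 with limma adjusted p = 0.00889). The uncalled gene, named after its value was seen, was MSR1 for arginine (0.15 ± 0.09, limma adjusted p = 0.212). All 8 genes for mitochondrial translation factors rose, by a median of 0.73. Of all genes tested 31.6% rose and 15.7% fell. MEF2, a mitochondrial elongation factor that acts in ribosome recycling, had 40.4 FPKM at 0.0125% and 19.7 FPKM at 0.4% (a log2 change of 1.11 ± 0.17 with limma adjusted p = 0.00109), and MEF1, the mitochondrial counterpart of eEF2, had 77.6 FPKM at 0.0125% and 50.7 FPKM at 0.4% (a log2 change of 0.78 ± 0.10 with limma adjusted p = 0.000555). Scaling by median ratios left 9 of the 13 and all 8 as risen, and quantile normalization left 8 and 8. Under these scalings 23.0% and 19.8% of all genes tested rose. Of 137 cytosolic ribosomal protein genes 112 fell and 3 rose, against 15.7% and 31.6% of all genes tested, with a median of -0.53. RPL1B had 314 FPKM at 0.0125% and 660.3 FPKM at 0.4% (a log2 change of -1.03 ± 0.16 with limma adjusted p = 0.00119), and RPL9A had 1623 FPKM at 0.0125% and 3251 FPKM at 0.4% (a log2 change of -0.89 ± 0.18 with limma adjusted p = 0.00319). RPL9B, the paralog of RPL9A, had 1447 FPKM at 0.0125% and 1049 FPKM at 0.4% (a log2 change of 0.37 ± 0.10 with limma adjusted p = 0.0168), a call lost after scaling by median ratios (0.25, limma adjusted p = 0.088). Whether reads of RPL9A and RPL9B, or of other paralogs among the 137 genes, can be told apart was not checked. Their calls may therefore not be separate measurements. RPL36B was called as risen but was listed at 0 in 2 of the libraries, and overlaps another gene. Whether these lists differ from the 52 members was not tested.

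**Figure D4:**
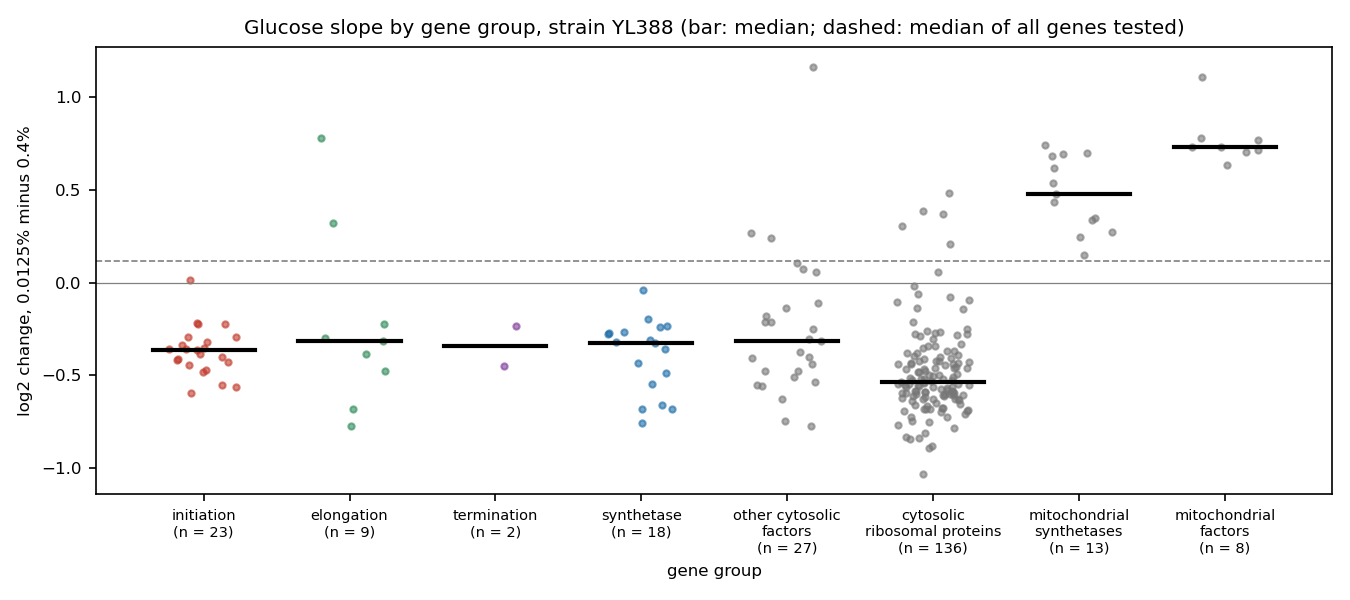
Fitted log2 change, 0.0125% minus 0.4% glucose, for every gene of the 4 member classes, left, and of 4 related lists, right, with medians as bars and the median of all genes tested as a dashed line; 1 ribosomal protein gene listed at 0 in some libraries is left out. The 4 member classes, the other cytosolic factors and the ribosomal proteins have medians from -0.53 to -0.31, and the mitochondrial lists have medians of 0.48 and 0.73.

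Between the strains, at 0.2% glucose, 0 of the 52 members reached a 1.5-fold difference in the YL390 library relative to the YL388 library. Of 6072 genes 6.04% did, and with 1 library per strain there is no test of this difference. These 6072 genes reach down to a mean of 1 FPKM, and no comparison with genes of like level was made. Outside the members, the helicase gene DBP1 had 10.4 FPKM in YL390 and 6.57 FPKM in YL388, a difference of 0.59 in log2(FPKM + 1). The median member difference, YL390 minus YL388, was 0.07 on the log2 scale, against 0.05 over all genes tested, and 42 of 52 members (80.8%) were above 0, against 61.3% of the 6072 genes. SUP35 showed the highest difference, with 185 FPKM in YL390 and 157 FPKM in YL388 (0.24), followed by TIF4631, with 101 FPKM in YL390 and 88.1 FPKM in YL388 (0.19). HEF3 showed the lowest, with 3.36 FPKM in YL390 and 3.95 FPKM in YL388 (-0.18), followed by SUI1, with 3681 FPKM in YL390 and 4069 FPKM in YL388 (-0.14). The steepest synthetase along glucose, MES1, had 144 FPKM in YL390 and 135 FPKM in YL388 (0.10). The YL390 ratios of the diverging pairs were 279.6 for YEF3 over HEF3, 2.53 for TEF4 over CAM1 and 3.91 for TIF4631 over TIF4632, against 243.4, 2.66 and 3.85 in YL388.

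A fit over all 10 libraries, which assumes that the YL390 library varies like the YL388 ones, placed the YL390 value relative to the YL388 curve. By limma 0 of the 52 members lay off that curve, while 3.66% of 6120 genes did, and at an unadjusted p under 0.05 there were 3 members and 903 genes. Distances from the curve ran from -0.11 (CDC60) to 0.18 (SUP35), and the smallest limma adjusted p was 0.194, for TIF11, with 2056 FPKM in YL390 and 1857, 1853 and 1850.3 FPKM in YL388 at 0.15, 0.2 and 0.4%. Quantile normalization called 1 member, TIF11 (0.18 ± 0.04, limma adjusted p = 0.0453). The share of all genes called under that scaling is not given. Of the 27 other cytosolic factors 1 was called, DBP1 (0.55 ± 0.10, limma adjusted p = 0.0236), named here after its value was seen. This fit speaks of the YL390 library and not of the strain.

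**Figure D5:**
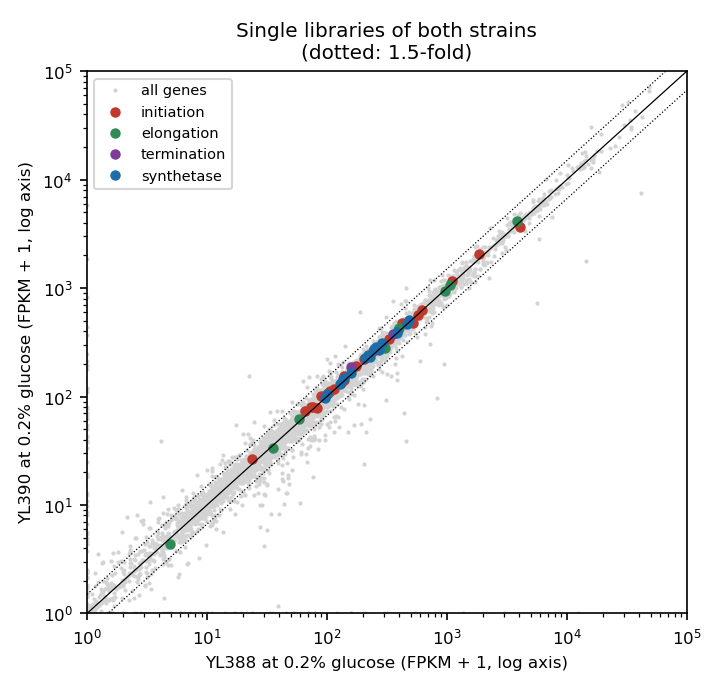
Level of every gene (FPKM + 1, log axes) in the YL390 library against the YL388 library, both at 0.2% glucose, with the 52 members coloured by class and dotted lines at 1.5-fold. The coloured points lie between the dotted lines along the whole range of member levels.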

How the data were processed

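Deposited per-gene FPKM and their lower and upper confidence bounds, in the layout of Cufflinks per the file headers, were used from 10 libraries. TopHat, Cufflinks and DESeq2 and the build sacCer3 stand, without versions or roles, in the submitters' processing notes; annotation, strand use and read length are stated nowhere in the labels. Samples were grouped by strain number and glucose in the labels. The members and gene lists were chosen with earlier results of these data known. Any member could be named; of other lists, up to 2 genes with the largest called change in each direction were, with all 3 further cytosolic synthetases; GCN4, MSR1 and the YL390 value of DBP1 were added after their values were seen. Fits used genes whose mean reached 1 FPKM. Values as log2(FPKM + 1) entered limma (version 3.58.1, R 4.3.3, eBayes with intensity trend), Benjamini-Hochberg adjusted over all genes; fold changes on this scale understate those of low genes. The script was tested on simulated data. No file gives counts, so depth was implied from the bounds, read as 2 Poisson SD on each side, in genes over 1500 bp; it covers counting error only. Because no condition was replicated, errors measure scatter around a line, and the labels do not say how independent the cultures were. Of 6692 identifiers, 6008 matched RefSeq R64, 6000 with identical coordinates. Sequences were read from that assembly. Paralog ratios were tested by exact permutation (SciPy 1.17.1); this measure and its form with no pseudocount were chosen after seeing the data. Alternatives changed pseudocount, filter, scaling, glucose scale, moderation, value and libraries.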

Additional observations from a re-analysis of the deposited data

How the results depend on the processing

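The count of members that fell along glucose was 43 and stayed within 1.5 times of that under the alternatives run except on a linear glucose scale (percent), where 0 fell and 0 rose and the median change was -0.26. The count of 2 that rose became 1 with a mean of at least 10 FPKM, which removes HEF3, and 0 with quantile normalization. Leaving out each YL388 library in turn gave 31 to 46 members that fell, 1 to 2 that rose and a median change from -0.43 to -0.25; the square term was called for 0 to 11 members. The median change was -0.48 with median-of-ratios scaling and -0.53 with quantile normalization, against -0.36, while the median of all genes was -0.00 and -0.08, against 0.12. For low minus middle glucose, quantile normalization gave 41 members that fell, 0 that rose and a median of -0.29. It also called 1 member as off the YL388 curve in YL390, where the deposited scale called 0. Shares over all genes are not given for these alternative fits or for those without 1 library. Their counts therefore compare settings, and not the members with other genes. No named member that was called turned its direction under any alternative. No paired analysis was possible because each group analysed had 1 library. A count of 32 of the 45 called members stayed called in each fit without 1 library. Depth limits HEF3 most, with 105 to 219 implied fragments; strain differences have no replicate check in the libraries used, and replicated unstressed libraries of both strains in the series were not analysed here.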
